A study of Mus musculus with 39 samples.

Results

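Olfactory receptor genes fill long arrays on mouse chromosomes 2, 7 and 9. The data described here are every 200 bp tile of the deposited tile table that lies within chr2:85000000-90200000, chr7:109600000-116000000 or chr9:37500000-40200000 of genome build mm9, with the CpGs of the deposited single-CpG table in the same intervals. The intervals held 1137 of 377684 tiles and 619 of 330387 CpGs. The cluster on chromosome 2 had 330 tiles, that on chromosome 7 had 633 and that on chromosome 9 had 174. Neither table carries gene names, and no mm9 annotation was used here, so the intervals are taken as olfactory receptor clusters by their positions alone. Whether they also hold other genes was not checked. They were compared with the other 67988 tiles and 64061 CpGs of chromosomes 2, 7 and 9.

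The study measured DNA methylation by reduced representation bisulfite sequencing (RRBS), which reads CpGs near the cut sites of the enzyme MspI, and by its oxidative form (oxRRBS), in 39 libraries of 10 groups. Bisulfite reads 5-methylcytosine (5mC) and 5-hydroxymethylcytosine (5hmC) alike, so RRBS gives their sum, called total methylation here, while oxRRBS gives 5mC. Mouse embryonic stem cells (mESC) were derived from morulas of embryonic day 2.5 of mice carrying the germline null allele of strain 129s-Trp53tm2Tyj/J, so p53 is absent from every p53-null cell. They were grown in 2i+LIF on irradiated feeder fibroblasts (the naive state), or freed of feeders and given 1 μM retinoic acid (RA) for 4 days. RRBS libraries numbered 4 from RA-treated p53-null and 5 from RA-treated WT cells, and 3 from naive p53-null and 5 from naive WT cells. The oxRRBS libraries numbered 4 and 4 from RA-treated p53-null and WT cells, and 3 and 5 from naive p53-null and WT cells. Livers of males aged 16 weeks gave 3 p53-null and 3 WT libraries, with RRBS only. The labels do not say how many cell lines gave the mESC libraries.

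The single-CpG table names genotype and state in its headings. The tile table has 2 sets of columns for both genotypes, each with total methylation and 5mC, whose headings name no state; they are called the first set and the second set. Over the 198 cluster tiles that could be set beside the single-CpG table, the first set differed on average from the RA-treated columns by 10.7 points for p53-null and 14.2 for WT, and from the naive columns by 4.40 points for both genotypes. The second set differed from the RA-treated columns by 4.74 points for p53-null and 5.68 for WT, and from the naive columns by 9.46 and 12.2 points. The first set was thus nearer to the naive columns and the second nearer to the RA-treated ones, but the sets are kept under their neutral names. A further pair of tile columns, headed only p53 and WT, is called the third pair. GEO's records give the tile table as the liver libraries' processed file, yet no heading names a tissue, so liver values are not told apart from it by name. Every column is a pooled value with neither coverage nor libraries, so no replicate spread and no test of genotype or state could be computed. The SDs below are spreads over tiles, CpGs or the 3 clusters.

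Olfactory receptors are G protein-coupled receptors that bind odorants, and each olfactory sensory neuron transcribes a single allele of a single receptor gene. The genes are short, tandemly repeated and, outside the olfactory epithelium, mostly silent. Their promoters are poor in CpGs and lack the CpG islands that keep many other promoters free of methylation. Naive mESC in 2i hold low DNA methylation, and methylation rises when they leave that state.

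The sparse CpGs of these genes are visible in RefSeq promoters, which span 250 bases before to 50 bases after each gene's start in build GRCm38.p6. On chromosomes 2, 7 and 9 RefSeq lists 850 olfactory receptor genes and pseudogenes, 656 of them protein coding, and 564 promoters had a sequence. These held 1.15 CpGs on average, against 12.8 in the other 6990 promoters of those chromosomes. No CpG was present in 34.9% of the olfactory receptor promoters, against 4.66% of the others. The MspI site CCGG, which reads the same on both strands and contains a CpG, was found in 22 of the 564 (3.90%), against 56.1% of the other promoters and 52.8% of all 32851. Because the promoters are on another build than the tiles, none was tied to a tile. Some of the genes may lie outside the intervals, and this was not checked for the 2 printed below. A promoter with the median number of CpGs (Olfr5, chromosome 7, minus strand, 1 CpG) and a promoter with an MspI site (Olfr366, chromosome 2, plus strand, 3 CpGs) show what the assay can and cannot cut; capitals mark CpGs and, in the second, the whole CCGG.
Olfr5: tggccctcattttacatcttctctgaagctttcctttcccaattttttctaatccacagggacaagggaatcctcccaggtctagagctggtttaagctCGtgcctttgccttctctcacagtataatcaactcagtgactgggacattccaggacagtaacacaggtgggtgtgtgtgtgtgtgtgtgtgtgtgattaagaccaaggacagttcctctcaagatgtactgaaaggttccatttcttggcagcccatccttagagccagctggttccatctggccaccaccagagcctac
Olfr366: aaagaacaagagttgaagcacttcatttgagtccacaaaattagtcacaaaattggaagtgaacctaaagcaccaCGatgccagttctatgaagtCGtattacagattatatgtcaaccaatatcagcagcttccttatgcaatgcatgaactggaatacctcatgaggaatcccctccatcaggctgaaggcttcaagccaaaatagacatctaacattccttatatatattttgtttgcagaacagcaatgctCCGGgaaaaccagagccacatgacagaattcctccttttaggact

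The clusters were thinly sampled. They held 79.5 tiles per Mb, against 156 per Mb in the rest of the 3 chromosomes, and 43.3 single CpGs per Mb, against 147. The cluster on chromosome 2 was the sparsest in single CpGs, with 14.6 per Mb against 144 in the rest of that chromosome. The cluster on chromosome 7 had 98.9 tiles and 74.1 CpGs per Mb, against 160 tiles and 150 CpGs. Values for both genotypes were present in 720 cluster tiles in the first set, 721 in the second and 880 in the third pair, and 532 tiles had a value in all 10 columns used. No value in any used column was present for 79 cluster tiles.

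Cluster tiles were more methylated than the rest of their chromosomes in every column, and the difference was largest in the third pair. In the first set, mean total methylation was 45.1 ± 27.9% in p53-null and 35.0 ± 23.2% in WT cluster tiles (SD over 720 tiles), against 37.3% and 28.7% over 43799 tiles of the rest. The second set averaged 42.5 ± 22.6% in p53-null and 44.8 ± 23.4% in WT (SD over 721 tiles), against 38.1% and 40.9% in the rest. In the third pair the clusters reached 75.5 ± 29.0% in p53-null (SD over 900 tiles) and 76.7 ± 28.03% in WT (SD over 1020 tiles), against 59.1% and 60.4%. The spread over tiles was wide in all columns, so single cluster tiles overlap the rest throughout.

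The clusters held few unmethylated tiles. In the third pair, 7.67% of p53-null and 6.57% of WT cluster tiles were under 5% methylated, against 22.5% and 21.2% of the rest. In the first set the share under 5% was 13.2% in p53-null and 14.4% in WT clusters, against 24.01% and 25.9%. For the second set the share was 9.99% and 9.57%, against 22.01% and 21.7%. The cluster on chromosome 2 held the fewest such tiles, with 0.962% in p53-null and 0.481% in WT in the second set. The cluster on chromosome 7 held the most, with 15.8% and 15.3%.

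**Figure D1:**
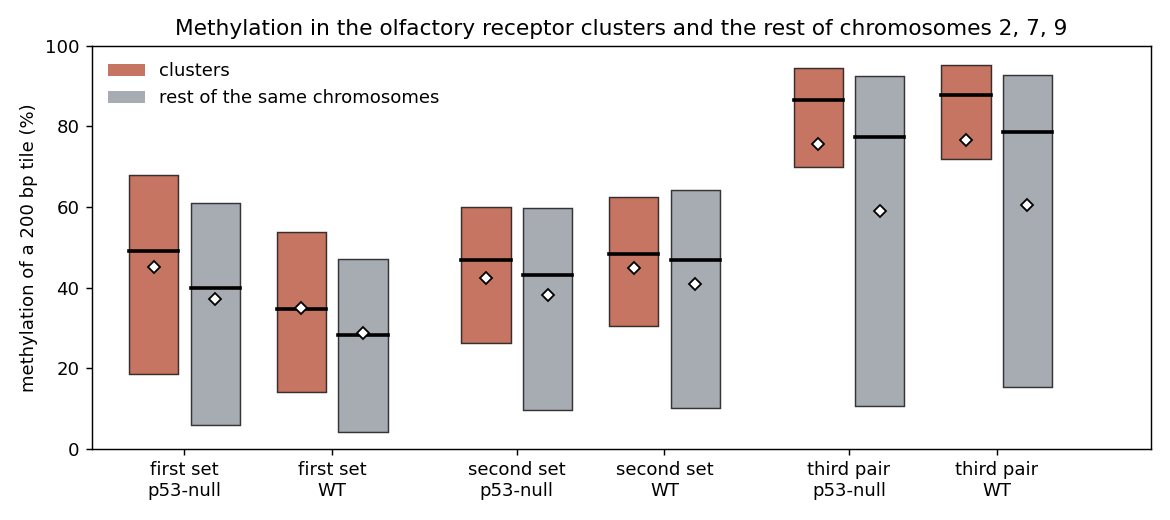
Methylation of 200 bp tiles (percent, vertical axis) in the 3 clusters and in the rest of chromosomes 2, 7 and 9, for p53-null and WT in the first set, the second set and the third pair. Boxes run from the lower to the upper quartile over tiles, black lines are medians and diamonds are means; the third pair has cluster medians of 86.5% in p53-null and 87.9% in WT, against 77.3% and 78.6% in the rest.

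Methylation was not even along the clusters. The lowest 1 Mb window was chr7:112000001-113000000, with 139 tiles, more than any other cluster window. Its tiles averaged 30.2% in p53-null and 21.4% in WT in the first set, 27.1% and 27.9% in the second, and 51.1% in p53-null in the third pair, with WT within 2 points. The next window, chr7:113000001-114000000, averaged 54.8% and 41.4%, then 49.4% and 52.2%, then 86.9% and 88.4% in the same columns. Along the cluster on chromosome 2 the windows kept close to each other, from 77.0% to 89.4% in WT of the third pair. On chromosome 9 the third pair's WT level was 87.4% in the leftmost window, with 17 tiles, and 67.9% in the rightmost, with 44.

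**Figure D2:**
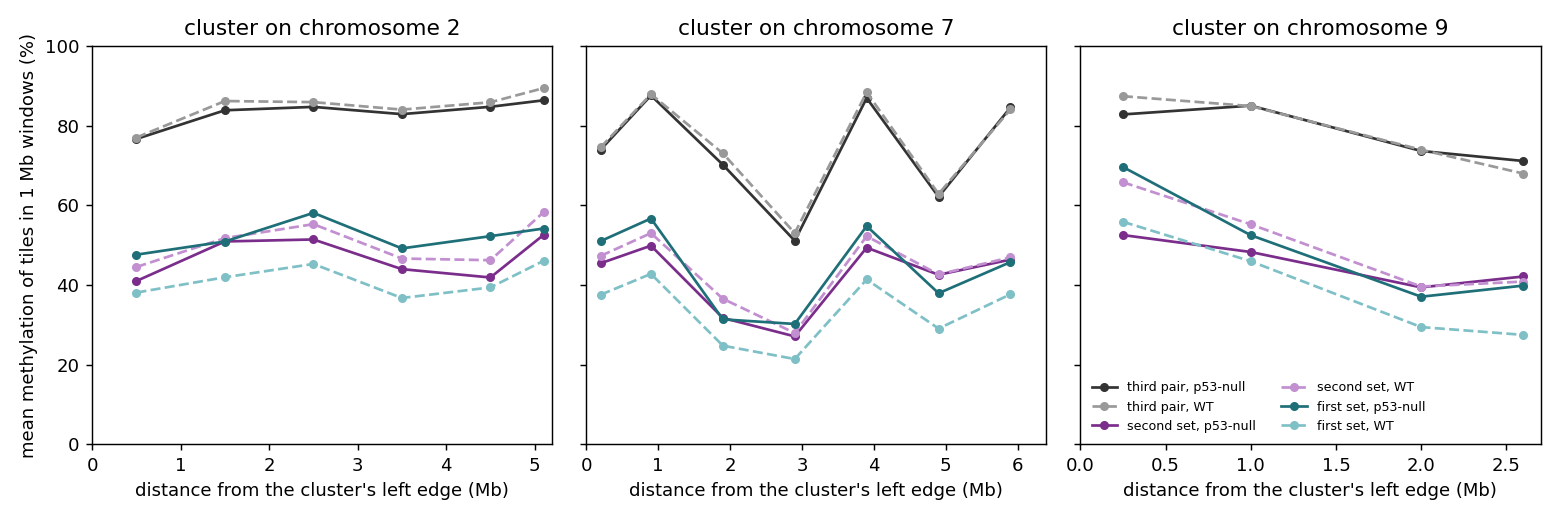
Mean methylation of tiles (percent) in 1 Mb windows against the distance from each cluster's left edge (Mb), with p53-null as solid and WT as dashed lines. The third pair lies above both sets in every window, and the cluster on chromosome 7 has a trough in which p53-null is down to 51.1% in the third pair and 30.2% in the first set.

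Most cluster tiles under 20% in every used column lay in the interval on chromosome 7, and no gene was tied to them. Of the 532 cluster tiles with a value in every used column, 45 (8.46%) were under 20% in all of them, against 24.9% of 33178 tiles in the rest. Of these 45 tiles, 37 were on chromosome 7, 6 on chromosome 9 and 2 on chromosome 2. These were 12.5%, 7.69% and 1.26% of the cluster tiles with every value on chromosomes 7, 9 and 2. The rest of those chromosomes had 24.2%, 24.6% and 25.7%. The 45 tiles formed 24 runs, 10 of a single tile. The longest runs had 4 tiles each, at chr7:114514401-114515200 and chr7:114738401-114739200. The lowest tile of all, chr7:112884801-112885000, was at 0% in total methylation of both genotypes in both sets and at 0% in p53-null and 0.170% in WT in the third pair. Of the 45, 44 had another tile within 1000 bp, against 86.4% of the other cluster tiles with all values; in the rest the shares were 99.1% of low tiles and 88.2% of the others.

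Some tiles that were low in both sets were high in the third pair. Among the 88 cluster tiles under 20% in total methylation in both sets, 9 (10.2%) were at or above 80% in the third pair in both genotypes, against 2.35% of 9895 such tiles in the rest. These shares were not matched on level within the range under 20%. Of tiles with both sets, 56 in the clusters were under 5% in the second set and 55 at 5 to 20%. The rest had 8057 and 3010, so its low tiles lay more often near 0. For example, chr2:85140601-85140800 had 92.4% in p53-null and 90.2% in WT in the third pair. Its levels in the second set were 8.32% and 10.9%, and in the first 5.31% and 3.61%. The tile at chr7:115643201-115643400 had 89.0% and 93.2% in the third pair, 14.4% and 13.2% in the second set, and 10.98% and 6.41% in the first. Methylation at or above 80% in all 3 was rare, in 3 of 532 cluster tiles (0.564%) against 0.0934% of the rest.

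Total methylation of the clusters was higher in p53-null than in WT in the first set and slightly lower in the second. In both sets the difference was close to that of tiles elsewhere with a like level in the other set. In the first set the difference was 10.1 points (45.1% in p53-null, 35.0% in WT), and it was 11.3 points on chromosome 2, 9.83 on chromosome 7 and 8.97 on chromosome 9. It was positive in all 17 windows of at least 10 tiles, from 6.53 to 13.9 points. For the second set the difference was -2.36 points (42.5% in p53-null, 44.8% in WT), below 0 in 16 of 17 windows, from -13.3 to 1.28 points, and its median over tiles was -1.14 points. In the third pair it was -0.333 points over 880 tiles (75.3% in p53-null, 75.7% in WT), above 0 in 6 windows and below in 11. There 35 tiles (3.98%) were higher in p53-null by at least 25 points and 36 (4.09%) lower, against 3.39% and 3.96% of all tiles.

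To compare like with like, tiles were put in 6 classes of level with limits at 5, 20, 40, 60 and 80%, taken from columns outside the difference compared, and the rest of the 3 chromosomes was weighted to the clusters' class counts. In the first set, classed by the second, the mean difference was 9.42 points in 617 cluster tiles and 9.45 in the matched rest, a gap of -0.02 ± 0.80 points (SD over the 3 clusters). In the second set, classed by the first, it was -2.49 points in the clusters and -3.07 in the matched rest, a gap of 0.58 ± 0.55. In the third pair it was -0.819 and -0.115 points, a gap of -0.70 ± 2.79, with chromosome 9 at 3.40 and chromosomes 2 and 7 at -1.54 and -1.31. These gaps were no larger than, or close to, the spread over the clusters. Matching on the other set did not make levels equal in the set compared. In the first set the matched clusters had 44.2% in p53-null and 34.8% in WT, against 40.2% and 30.7% in the rest. In the second set they had 42.5% and 45.0%, against 44.9% and 48.0%. Tiles of the clusters under 5% in the second set differed by -0.0189 points in the first set, and those at 40 to 60% by 12.6 points, against 0.151 and 12.2 in the rest.

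**Figure D3:**
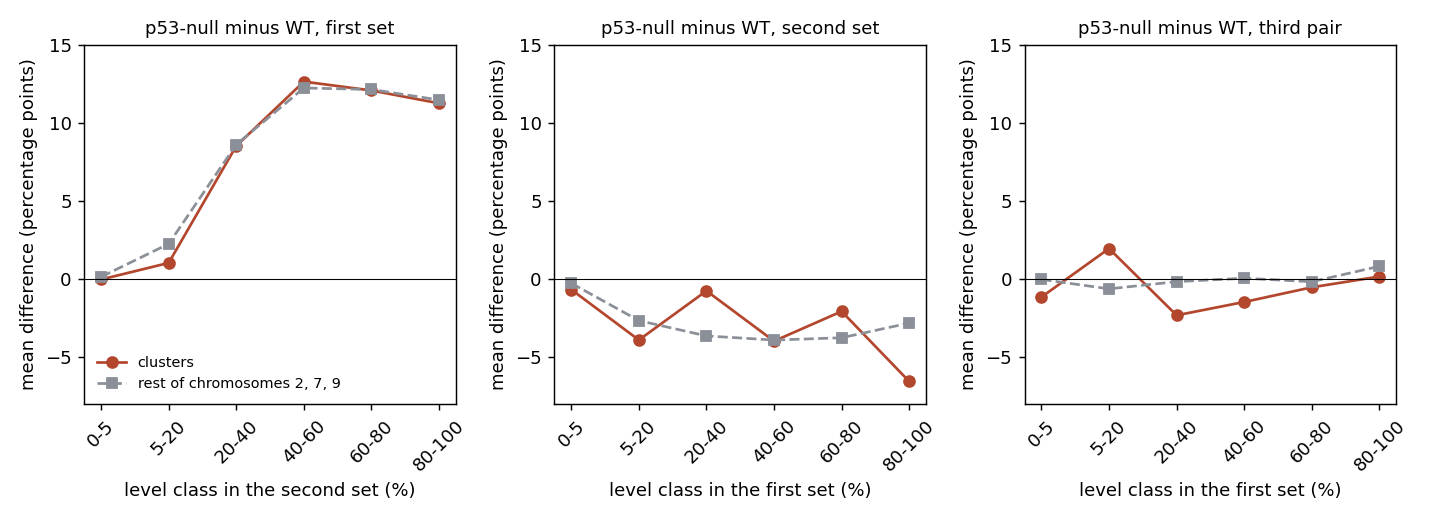
Mean p53-null minus WT difference (percentage points) by level class in the first set, the second set and the third pair, for the clusters and for the rest of chromosomes 2, 7 and 9. Level classes come from columns outside each comparison; in the first set both lines run from about 0 in the lowest class to 12.6 points in the clusters and 12.2 points in the rest at 40 to 60%, and the highest class of the clusters holds only 18 or 19 tiles.

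The authors' deposited table gives a q-value for each genotype difference, and a tile is called here where q is under 0.05 and the difference at least 10 points. By the authors' deposited table, 231 of 720 cluster tiles (32.1%) were called higher in p53-null in the first set and 10 (1.39%) lower, against 28.1% and 0.786% over all tiles of the table. At matched level the share called higher was 32.3% in the clusters and 32.2% in the rest, from the same deposited table. The q-values of the second set in that deposited table called 4 of 721 cluster tiles (0.555%) higher and 23 (3.19%) lower, against 0.481% and 3.65% over all tiles. All 4 higher calls were on chromosome 7, which held 399 of the 721 tiles. With q under 0.01 and at least 25 points, 54 tiles (7.50%) were higher and 1 (0.139%) was lower by the authors' deposited table for the first set, against 6.52% and 0.104%. Under the same stricter rule it called 0 higher and 4 (0.555%) lower in the second, against 0.0476% and 0.493%. The shares called higher in the clusters lay near those of the whole table. Lower calls in the first set were 10 of 720 cluster tiles (1.39%). Over the 617 cluster tiles that could be matched on level they were 1.46%, against 0.703% in the matched rest.

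The 5mC columns moved the same way as total methylation. In the first set 5mC was 40.2% in p53-null and 29.0% in WT cluster tiles, a difference of 11.2 points, and at matched level 11.6 points in the clusters against 10.1 in the rest, a gap of 1.49 ± 1.15. In the second set 5mC was 39.3% in p53-null and 43.4% in WT, a difference of -4.09 points, with a matched gap of 0.09 ± 0.83. Over tiles that also hold a CpG of the single-CpG table, the 5mC differences were 5.98 points in the first set and -2.61 in the second. By the 5mC q-values of the authors' deposited table, 302 of 720 cluster tiles (41.9%) were called higher and 51 (7.08%) lower for the first set, against 36.6% and 6.03% of all tiles. Its 5mC q-values for the second set called 23 of 721 (3.19%) higher and 76 (10.5%) lower, against 2.81% and 12.3%. The stricter rule on the deposited table left 144 higher (20%) and 20 lower (2.78%) of the 720, against 17.1% and 2.03% of all tiles. For the second set it left 5 (0.693%) and 28 (3.88%), against 0.597% and 3.30%.

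Total methylation minus 5mC, an estimate of 5hmC that can be negative, was small in the clusters and close to that of the rest. It averaged 4.91 ± 15.7 points in p53-null and 6.01 ± 15.1 points in WT in the first set, and 3.14 ± 12.9 and 1.41 ± 12.8 points in the second (SD over tiles). The rest averaged 5.09 points in p53-null and 5.77 in WT for the first set; for the second its means were 2.70 and 1.97 points. The difference between genotypes at matched level in the first set was -2.14 points in the clusters and -0.630 in the rest, a gap of -1.51 ± 1.11, with -2.34 on chromosome 7, -0.761 on chromosome 2 and -0.195 on chromosome 9. For the second set it was 1.31 points in the clusters and 0.824 in the rest, a gap of 0.49 ± 1.12 in the other direction. The spreads over tiles exceed the mean levels several times over, so the estimate says little about single tiles.

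Of the cluster tiles called with the largest differences in total methylation, at most 1 within 1000 bp, most were on chromosome 7, which held 397 of the 720 cluster tiles of the first set and 399 of the 721 of the second. In the authors' deposited table chr7:114134801-114135000 had 81.1% in p53-null and 30.9% in WT total methylation in the first set, a difference of 50.2 points with q = 1.57e-06. The same tile had in the second set 47.9% and 76.7%, and in the third pair 100% and 88.6%. Also in the authors' deposited table, chr7:113445801-113446000 differed by 50.2 points (79.4% in p53-null, 29.2% in WT, q = 5.77e-06) in the first set. Its 5mC there was 83.9% and 75.9%, higher than its total methylation in both genotypes, which a sum of 5mC and 5hmC cannot be. The largest difference in the clusters, 51.2 points (72.2% in p53-null, 21.1% in WT, q = 0.00547 in the authors' deposited table), was at chr7:110185601-110185800, where 5mC ran the other way (23.1% in p53-null, 66.7% in WT). In these examples 5mC and total methylation contradict each other, and the coverage behind them is unknown.

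Calls in the other direction were fewer in the first set. In the authors' deposited table chr7:115030601-115030800 had 45.8% in p53-null and 78.4% in WT in the first set (q = 0.00724), and 5mC of 61.9% and 30.8%, again in the opposite direction. The largest fall called in the clusters for the second set by the authors' deposited table was at chr2:90113001-90113200, with 23.8% in p53-null and 71.4% in WT (q = 0.0371), where 5mC was 42.9% and 22.2%, in the opposite direction. The smallest q among the 3 largest falls of the second set was at chr7:111886601-111886800, with 35.5% in p53-null and 73.1% in WT (q = 6.15e-05 in the authors' deposited table). The tile at chr7:115638601-115638800 was higher in p53-null in both sets and in 5mC as well. In the second set it had 56.7% in p53-null and 37.4% in WT (q = 2.83e-07 in the authors' deposited table), with 5mC of 48.7% and 30.3%. In the first set it had 33.5% and 14.2%, with 5mC of 44.5% and 11.3%, and in the third pair 87.3% and 89.3%.

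Among cluster tiles called in 5mC, the widest difference that the authors' deposited table gives for the first set was at chr2:88472401-88472600, with 5mC at 100% in p53-null and 21.2% in WT (q = 3.8e-10). Total methylation of that tile was 43.8% in p53-null and 15.9% in WT, below its 5mC in both. Among cluster tiles called lower in 5mC for the second set by the authors' deposited table, the widest difference was at chr9:39843601-39843800, with 5mC at 27.3% in p53-null and 84.0% in WT (q = 0.000101). Its total methylation there was 66.7% in p53-null and 55.6% in WT.

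Single CpGs, whose columns name the state, gave the genotype difference by state. In RA-treated cells the 619 cluster CpGs averaged 20.8 ± 26.5% in p53-null and 22.4 ± 28.1% in WT, a difference of -1.61 points. In naive cells they averaged 18.8 ± 27.8% in p53-null and 15.1 ± 22.6% in WT, a difference of 3.67 points (SD over CpGs). Both signs held in each of the 3 clusters, from -2.01 to -1.53 points in RA-treated and from 2.62 to 7.76 points in naive cells. At matched level the rest of the chromosomes gave -1.45 points in RA-treated and 3.97 in naive cells, gaps of -0.16 ± 0.64 and -0.30 ± 0.82. With each 200 bp tile counting once, the differences in the clusters were -2.86 points in RA-treated and 6.69 points in naive cells.

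Counts of CpGs had the same direction as the means in both states, but counts at matched level were not made. In RA-treated cells 38 cluster CpGs (6.14%) were higher in p53-null by at least 10 points and 84 (13.6%) lower, against 3.45% and 9.10% of all CpGs. In naive cells 123 (19.9%) were higher and 26 (4.2%) lower, against 14.0% and 1.88% of all CpGs. Unmatched, these shares exceed those of the whole table in both directions, and the clusters also hold fewer CpGs at or near 0. CpGs under 5% made up 59.3% in p53-null and 59.1% in WT cluster CpGs in naive cells, against 72.8% and 74.3% of the rest. The widest naive gap was at a CpG on chromosome 2 (chr2:89717011-89717012), picked after its values were seen, with 83% in p53-null and 27% in WT; in RA-treated cells it had 40% and 43%.

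**Figure D4:**
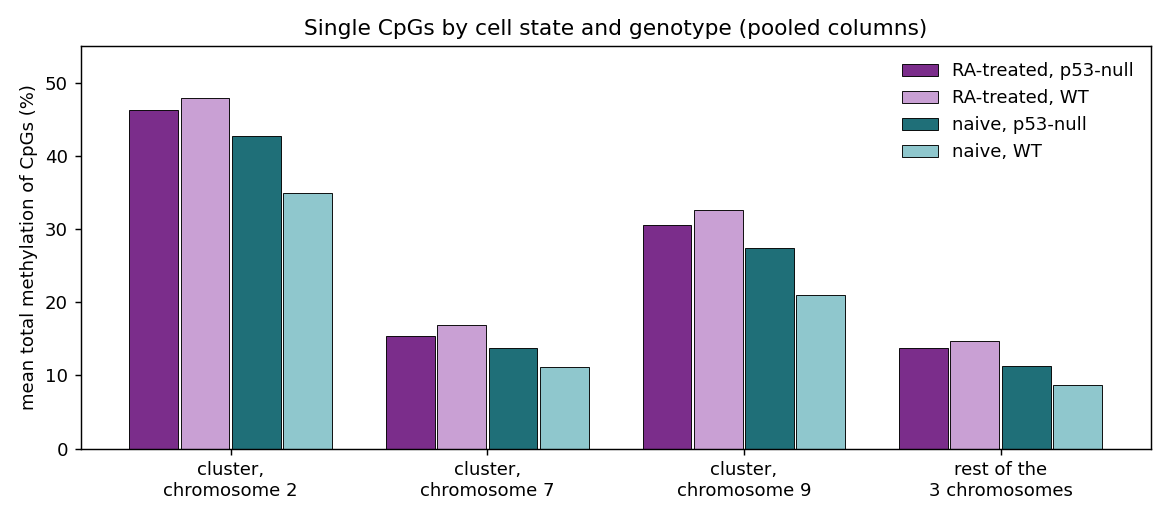
Mean total methylation of single CpGs (percent) in each cluster and in the rest of the 3 chromosomes, for RA-treated and naive cells of both genotypes; bars are means over CpGs of pooled columns and carry no error bars. The cluster on chromosome 2 reaches 46.2% in RA-treated p53-null and 47.9% in RA-treated WT, with 42.7% and 34.9% in naive cells, and the cluster on chromosome 7 stays at 16.9% or lower.

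In tiles of the first set WT averaged 40.9%, 31.8% and 35.1% on chromosomes 2, 7 and 9, and p53-null 52.1%, 41.6% and 44.1%. These differences between clusters were close in size to the genotype difference of 10.1 points. In the second set WT averaged 49.7%, 42.0% and 46.0%, with a genotype difference of -2.36 points. In single CpGs the 3 clusters differed from each other more than the genotypes did. RA-treated cells had 46.2% in p53-null and 47.9% in WT on chromosome 2 (76 CpGs), 30.5% and 32.6% on chromosome 9 (69 CpGs), and 15.3% and 16.9% on chromosome 7 (474 CpGs). In naive cells the levels were 42.7% and 34.9% on chromosome 2, 27.3% and 21.0% on chromosome 9, and 13.7% and 11.1% on chromosome 7. By naive WT level, the lowest window with at least 10 tiles in the single-CpG table was chr7:112000001-113000000, with 12.5% in p53-null and 11.8% in WT after RA, and 9.68% and 7.91% in naive cells. The highest on that chromosome by the same measure was chr7:113000001-114000000, with 52.6% and 57.8% after RA and 54.4% and 44.3% in naive cells. In that window RA-treated p53-null cells were below naive p53-null cells, while RA-treated WT cells were above naive WT cells.

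Cluster CpGs were more methylated in RA-treated than in naive cells, with a larger difference in WT than in p53-null cells. WT cluster CpGs averaged 22.4% after RA and 15.1% in naive cells, a difference of 7.28 points, with 182 CpGs (29.4%) higher by at least 10 points and 14 (2.26%) lower, against 23.8% and 0.802% of all CpGs. In p53-null cells they averaged 20.8% after RA and 18.8% in naive cells, a difference of 2.00 points, with 100 CpGs (16.2%) higher and 58 (9.37%) lower, against 14.1% and 4.46% of all CpGs. With each tile counting once the WT difference was 11.7 points. These differences share their columns with the genotype differences above and are not separate evidence of them.

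Compared at the same level, the RA-treated minus naive difference was smaller in the clusters than in the rest of their chromosomes. With the third pair setting the level classes, it was 7.20 points in WT cluster CpGs and 10.7 in the matched rest, a gap of -3.53 ± 2.16 points that was below 0 in each cluster (-6.88 on chromosome 2, -2.65 on chromosome 7, -4.00 on chromosome 9). Without chromosome 7 the gap was -5.60 points, over 1.5 times as wide. In the class at 80% or more of the third pair, the WT difference was 16.8 points over 173 cluster CpGs, against 22.1 over the rest. In p53-null cells it was 2.11 points in the cluster CpGs and 4.27 in the matched rest, a gap of -2.16 ± 1.32. By cluster the p53-null gap was -2.72 on chromosome 2, -2.12 on chromosome 7 and only -0.196 on chromosome 9. Not matched on level, the WT gap turned round to 1.34 points (7.28 points in the clusters, 5.94 in the rest); of the CpGs with a level in the third pair, 219 of 536 in the clusters and 41447 of 58847 in the rest were in its class under 5%.

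For the second minus the first set, whose states are not named, the matched gaps had the same sign as for single CpGs. The unmatched p53-null difference had the opposite sign, at -1.74 points in tiles and 2.00 in single CpGs. Tiles and single CpGs come from the same study's libraries, so they are not independent of each other. Over 617 cluster tiles WT averaged 45.0% in the second set and 34.8% in the first, a difference of 10.2 points, against 40.9% and 27.9% in the rest. At matched level of the third pair WT cluster tiles differed by 10.4 points and the rest by 15.3, a gap of -4.90 ± 2.57, with -7.80 on chromosome 2, -2.66 on chromosome 7 and -5.02 on chromosome 9. Of WT cluster tiles, 81 (13.1%) were higher by at least 25 points in the second set and 4 (0.648%) lower, against 20.3% and 0.270% over the whole table. In p53-null cells the clusters were lower in the second set by 1.74 points (42.5% in the second, 44.2% in the first), while the rest was higher by 1.99 points. Over cluster tiles that also hold a CpG of the single-CpG table the direction turned, with a difference of 2.02 points. The matched gap in p53-null was -3.72 ± 4.01 points, with -8.31 on chromosome 2, -1.11 on chromosome 7 and -1.64 on chromosome 9. Without chromosome 2 it shrank to -1.59 points, and without chromosome 7 it was -5.95, so in p53-null its size rests on the cluster on chromosome 2. Without chromosome 2 the WT gap was -3.54 points.

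In p53-null cells the cluster on chromosome 2 was lower in the second set than in the first, while the matched rest of its chromosome was higher. Its 183 tiles averaged 46.5% in the second set and 51.8% in the first in p53-null, with 4 tiles (2.19%) higher by at least 25 points and 17 (9.29%) lower, against 4.44% and 3.35% over the whole table. Over the 159 of them with a level in the third pair the difference was -4.57 points, and the matched rest of chromosome 2 differed by 3.73 points. In WT the same tiles averaged 49.7% in the second set and 40.9% in the first. Its single CpGs in p53-null cells were higher after RA by 3.51 points (46.2% after RA, 42.7% naive), a direction opposite to that of the tiles; the 76 CpGs cover fewer places than the tiles.

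The clusters were also higher in the third pair than tiles of like level in the first set. At the same level in the first set, the third pair averaged 75.3% in p53-null and 76.7% in WT cluster tiles, against 68.8% and 69.4% in the matched rest, gaps of 6.47 and 7.35 points. The gap was positive in each cluster in both genotypes, from 5.98 to 7.64 points in p53-null and from 4.68 to 7.76 in WT. With tiles classed by the second set instead, the third pair minus the first set exceeded the matched rest by 2.81 ± 2.60 points in p53-null (30.8 in the clusters, 28.02 in the rest) and by 3.71 ± 2.13 in WT (41.3 and 37.5), and p53-null on chromosome 2 was at -0.05. In p53-null that gap was -3.08 points at 40 to 60% and -2.07 at 60 to 80%. Classed by the first set, the gap was widest for tiles that were nearly unmethylated in the first set. Under 5%, the third pair averaged 27.7% in p53-null and 31.0% in WT cluster tiles, against 9.40% and 9.76% in the rest. At 60 to 80% in the first set, the clusters had 89.2% and 89.7% in the third pair, against 87.6% and 87.9%.

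Relative to the second set, the third pair was higher by 32.6 points in p53-null (74.5% in the third pair, 41.9% in the second set) and by 31.1 points in WT (76.1% and 45.0%). At matched level of the first set the clusters exceeded the rest by 8.63 ± 2.93 points in p53-null and 10.2 ± 3.56 in WT. In p53-null the clusters then had 74.6% in the third pair and 42.2% in the second set, against 68.3% and 44.5%. In WT they had 76.3% and 45.2%, against 68.8% and 47.9%. With tiles classed by the second set, the third pair was higher in the clusters by 7.02 points in p53-null and 7.86 in WT. Without matching, a difference of at least 25 points was found in 62.8% of p53-null and 63.7% of WT cluster tiles, against 49.0% and 43.0% of all tiles. A difference of that size in the other direction was found in 2 cluster tiles of each genotype (0.334% in p53-null, 0.307% in WT), against 2.35% and 2.56% of all tiles. The third pair and the sets come from columns whose tissue is not named, and a difference of tissue and one of how the columns were made cannot be told apart.

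**Figure D5:**
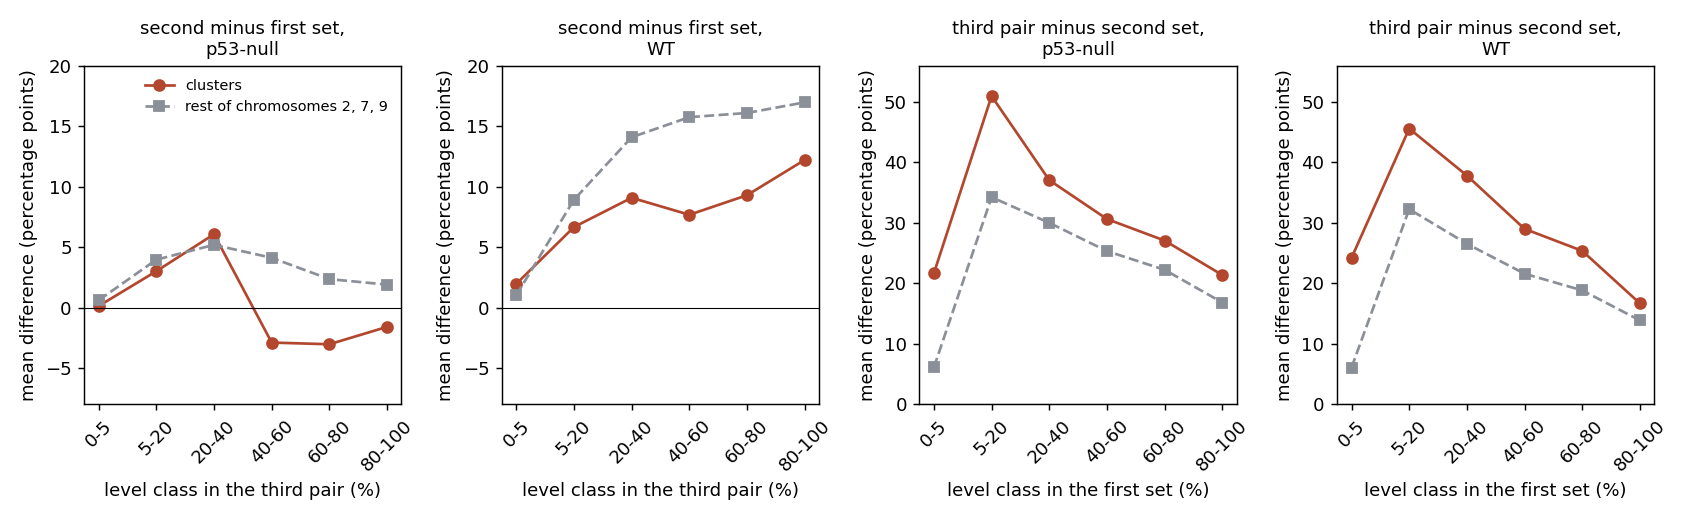
Mean difference (percentage points) by level class for p53-null and WT: the second set minus the first by class of the third pair in the left panels, and the third pair minus the second set by class of the first set in the right panels, for the clusters and the rest of chromosomes 2, 7 and 9. The clusters lie below the rest from 40% upward on the left, at 12.2 against 17.0 points in WT at 80% or more, and above it in every class on the right; cluster classes with 11 to 19 tiles are thinly filled.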

How the data were processed

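RRBS and oxRRBS libraries came from MspI-digested DNA, per the labels' protocols. Trim Galore, BSMAP, methylKit and build mm9 are named in the submitters' processing notes; for their roles, versions and coverage filters, the sources used here give nothing. The deposited CpG table holds whole percent values of pooled groups. The deposited tile table holds fractions, multiplied here to percent, with the authors' q-values, in which -1 was taken as no value. A further 6 columns of pooled values with undefined suffixes were not used. Neither table gives counts, so depth is unknown and no interval or floor is given.

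Means over tiles or CpGs, differences and level-matched means were computed with pandas 2.3.3 and numpy 2.4.6. The level matching and the call rule were first tried on simulated data. That trial allowed an error wider than most genotype gaps given here. It also drew the simulated difference from the same column that set the classes. The matched value weights the rest's class means by the clusters' class counts. Planned tests needed single libraries and were not run. Named tiles are, per comparison with a q, the 3 largest called differences in each direction, at most 1 within 1000 bp. The intervals, classes and rules were chosen with earlier results of these data known. Alternatives left out each cluster, changed the classes, the surrounding tiles, the matching, the mean and the call.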

Additional observations from a re-analysis of the deposited data

Results flagged for a closer look

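The genotype difference of the clusters had opposite signs between the states and between the sets, and the change of sign itself was not tested, since the columns are pooled. In single CpGs, p53-null minus WT was -1.61 points in RA-treated and 3.67 points in naive cells. In the tile table it was -2.36 points in the second set and 10.1 points in the first. The matched rest of the 3 chromosomes had the same signs, with -1.45 and 3.97 points for single CpGs and -3.07 and 9.45 points for tiles.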

How the results depend on the processing

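Over 24 mean differences and gaps, 133 of 146 alternative values kept the direction and 125 moved by less than the SD over the 3 clusters. The clusters left out in some alternatives also make up that SD, and a wide SD lets more alternatives count as within it. The tally is therefore not a measure of robustness. Using only tiles with a CpG in the CpG table, p53-null minus WT became 6.77 points in total methylation and 5.98 in 5mC of the first set, and -2.61 in 5mC of the second. On those tiles the second set minus the first in p53-null became 2.02 points, and the third pair minus the second set 27.9 in p53-null and 26.3 in WT. With medians, the first set gave 8.92 points in total methylation and 9.04 in 5mC, the second -1.14 and -2.66, and the second minus the first in WT 9.02. With tiles that have every value, 5mC of the second set gave -3.66. Counting each tile once, single CpGs gave -2.86 points for RA-treated and 6.69 for naive p53-null minus WT, and 11.7 for RA-treated minus naive in WT; with CpGs above 0 the RA-treated value was -2.12. Not matched on level, gaps were 1.59 points for the first set, 1.12 for naive CpGs, and, for RA-treated minus naive, -0.437 in p53-null and 1.34 in WT; without chromosome 7 the RA-treated genotype gap was 0.726. The CpG gaps at matched level and their alternatives were added after seeing the data.

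With q under 0.01 and at least 25 points, total methylation calls of the deposited table dropped to 54 higher and 1 lower for the first set, and to 0 higher and 4 lower for the second. Those in 5mC dropped to 144 and 20 for the first set and to 5 and 28 for the second. No paired analysis was possible because the columns are pooled and carry no replicate numbers. Leaving out libraries, a coverage minimum and a test were not possible for the same reason, and the number of reads behind any tile is unknown.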
